A study of Homo sapiens with 6 samples.

Results

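The genes described here are 46 that serve the folding, quality control and import of proteins in the endoplasmic reticulum (ER), taken by symbol from a fixed list out of the 58735 genes of the deposited table. All 46 symbols matched 1 row each. They comprise 6 Hsp70, Hsp90 and GRP170 chaperones and partners, 4 J-domain co-chaperones, 7 disulfide isomerases and oxidases, 2 lectin chaperones, 7 stress sensors and transcription factors, 11 genes of ER-associated degradation (ERAD), 5 of the Sec61 channel and 4 of the TRAP complex. The study sequenced RNA of SW480, an established human colorectal adenocarcinoma line grown in Leibovitz's L-15 medium with fetal bovine serum. There were 3 libraries with the genotype label DDX39B overexpression, called OE libraries here, and 3 with the genotype label WT, titled Con and called CT libraries. No label gives the means of overexpression, whether the cells were 1 clone or a pool, or whether the WT cells carried an empty vector.

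The level of the targeted gene went against the labels. DDX39B, an RNA helicase of splicing and mRNA export, measured 15.02, 13.87 and 14.03 FPKM in the OE libraries and 39.3, 34.6 and 41.9 FPKM in the CT libraries (log2 fold change -1.37 ± 0.0792 (SE), adjusted p = 6.93e-06 by limma), so it was 2.70-fold lower in the libraries labelled overexpression. Every direction below is therefore that of the labels. Library totals were 16963075 to 17463697 reads. The denominator of the deposited FPKM was 1.038 to 1.052 times that total in the OE and 0.958 to 0.995 times in the CT libraries. This difference follows the groups and lowers the OE values relative to the CT values. Of 12 colon epithelial markers, 6 were expressed enough to be tested and all 6 were higher in the OE libraries, where their list summed to 1478 to 1496 FPKM against 358 to 430.2 FPKM in the CT libraries. Most of each sum came from the general epithelial keratins KRT8 (691, 680.0 and 672 FPKM in the OE, 171, 178 and 189 FPKM in the CT libraries) and KRT18 (609, 606 and 614 FPKM in the OE, 193, 176 and 236 FPKM in the CT libraries). KRT20, a keratin of differentiated colon cells and too low to be tested, went the other way without overlap, with 6 reads over the OE and 80 over the CT libraries. Of the 6 tested, EPCAM measured 170, 175 and 168 FPKM in the OE and 2.39, 2.28 and 3.49 FPKM in the CT libraries. CDH1 was 38.7-fold and VIL1 22.9-fold higher in the OE than in the CT libraries. CDX2, an intestinal homeobox factor, had no read in a CT library, and CDX1 none in any library. The 8 leukocyte markers summed to at most 1.54 FPKM in a library. The 8 fibroblast markers summed to 1.54 to 1.67 FPKM in the OE and 4.42 to 8.30 FPKM in the CT libraries. COL1A1, the 1 of them tested, was lower in the OE libraries (limma adjusted p = 0.000523). The 7 endothelial markers summed to 1.06 to 1.48 FPKM in the OE and 36.2 to 50.7 FPKM in the CT libraries. ESAM alone held 44.6, 35.6 and 50.4 FPKM in the CT libraries. The defining genes CD3D and MS4A1 (lymphocytes) and KDR (endothelium) were at 0 in all libraries. The part of these differences in the values below was not tested, and in bulk RNA fewer cells of a type cannot be told apart from less RNA per cell. Nothing in the labels says that the libraries came from separate cultures, so p-values measure the spread between these libraries alone.

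Proteins bound for secretion or for membranes enter the ER through the Sec61 channel, fold there with the help of chaperones such as HSPA5 (BiP) and of disulfide isomerases, and are returned to the cytosol and degraded when they fail to fold. When unfolded protein builds up, the sensors IRE1 (gene ERN1), ATF6 and PERK (EIF2AK3) start the unfolded protein response, in which the factors XBP1, ATF6 and ATF4 raise transcription of chaperone and ERAD genes. XBP1 and ATF6 act with NF-Y through the ER stress element (ERSE) and its variant ERSE-II in the promoters of these genes. XBP1 and ATF6 also act through a further site, the UPRE. Secretory cells, such as goblet cells of the colon, rely on this response for mucin production.

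Promoter stretches are shown because 8 of the 15 members lower by at least 1 on the log2 scale hold an ERSE or ERSE-II in them. Of the 15, PDIA3 had no promoter sequence to search. RefSeq promoter sequences (GRCh38.p14, 250 bases before to 50 bases after an annotated start) were given for 43 of the 46 members, all but PDIA3, DERL1 and DERL3. The ERSE was searched as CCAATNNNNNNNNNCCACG, the ERSE-II as ATTGGNCCACG and the UPRE as TGACGTGG, by exact letters on both strands. A gene was counted as holding an element if any of its promoters did. By gene, an ERSE was found in 8 of the 43 members (18.6%) and in 25 of all 27305 genes with a promoter (0.0916%). An ERSE-II was found in 3 members (6.98%) and in 0.0696% of all genes, and a UPRE in 6 members (14.0%) and in 0.927%. By promoter, the shares of all 34943 distinct sequences of that length were 0.0773%, 0.0544% and 0.73%. The ERSE was defined on promoters of members such as HSPA5, HSP90B1 and CALR, so these shares describe the genes and not these samples. The stretches below run 5′ to 3′ on the strand of the gene, lie upstream of the start that RefSeq annotates, and have the element in capitals. Exons in GENCODE 29 reach 15 bases into the stretch of XBP1, 12 into that of PDIA6 and 8 into that of HERPUD1. The ERSE letters of HSP90B1 stand in stretches wholly within an annotated exon, as does a site of CANX that was found from more than 1 of its annotated starts, and those are not printed. ERSE stretches are those of HSPA5 (chr9:125241371-125241429, minus strand), XBP1 (chr22:28800583-28800641, minus strand), CALR (chr19:12938364-12938422, plus strand), PDIA6 (chr2:10812833-10812891, minus strand), CRELD2 (chr22:49918534-49918592, plus strand) and ERO1B (chr1:236282163-236282208, minus strand). ERSE-II stretches are those of HERPUD1 (chr16:56932005-56932055, plus strand), SDF2L1 (chr22:21642094-21642144, plus strand) and HYOU1 (chr11:119057254-119057304, minus strand).
HSPA5: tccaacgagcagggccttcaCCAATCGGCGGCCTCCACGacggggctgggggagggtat
XBP1: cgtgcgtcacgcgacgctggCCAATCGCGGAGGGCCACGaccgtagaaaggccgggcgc
CALR: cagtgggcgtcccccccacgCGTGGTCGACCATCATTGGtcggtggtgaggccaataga
PDIA6: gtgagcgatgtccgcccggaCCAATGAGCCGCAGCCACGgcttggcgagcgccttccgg
CRELD2: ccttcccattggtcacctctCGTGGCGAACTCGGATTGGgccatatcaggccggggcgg
ERO1B: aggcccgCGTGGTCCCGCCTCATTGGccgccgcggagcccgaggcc
HERPUD1: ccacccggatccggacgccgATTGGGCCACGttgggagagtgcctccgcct
SDF2L1: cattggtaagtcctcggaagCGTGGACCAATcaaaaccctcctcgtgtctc
HYOU1: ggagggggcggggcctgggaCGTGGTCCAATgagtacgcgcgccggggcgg

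Of the 11 members with an ERSE or an ERSE-II (those printed, HSP90B1 and CANX), 10 were lower in the OE libraries and 1, ERO1B, was higher, all past the threshold of a limma adjusted p of 0.05. Their median log2 fold change was -1.56, and 8 of them were lower by at least 1 on the log2 scale. Of the 31 tested members with a promoter and no exact match to either element, 19 were lower, 6 were higher and 6 did not pass. Their median was -0.35. Among all genes tested, 39.3% were lower and 37.5% higher past that threshold, with a median of -0.03. Lower by at least 1 on the log2 scale were 15.4% of all genes tested. ERO1B holds the ERSE letters 243 bases upstream of its start and differed in the other direction. The 6 members with UPRE letters were HYOU1, SSR3 and SSR4, which were lower, VCP and DNAJC10, which were higher, and SEC62, which did not pass. In HYOU1 the UPRE letters overlap its more distant ERSE-II. The annotated start need not be the one used in these cells, and a match of letters is not a measured binding site. Elements that differ in a letter or lie outside the searched stretches would have been missed. The stretches were chosen with the differences known, so this split describes the members and is no test of the elements. Levels of the genes outside the members that hold an ERSE or ERSE-II were not examined.

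**Figure D1:**
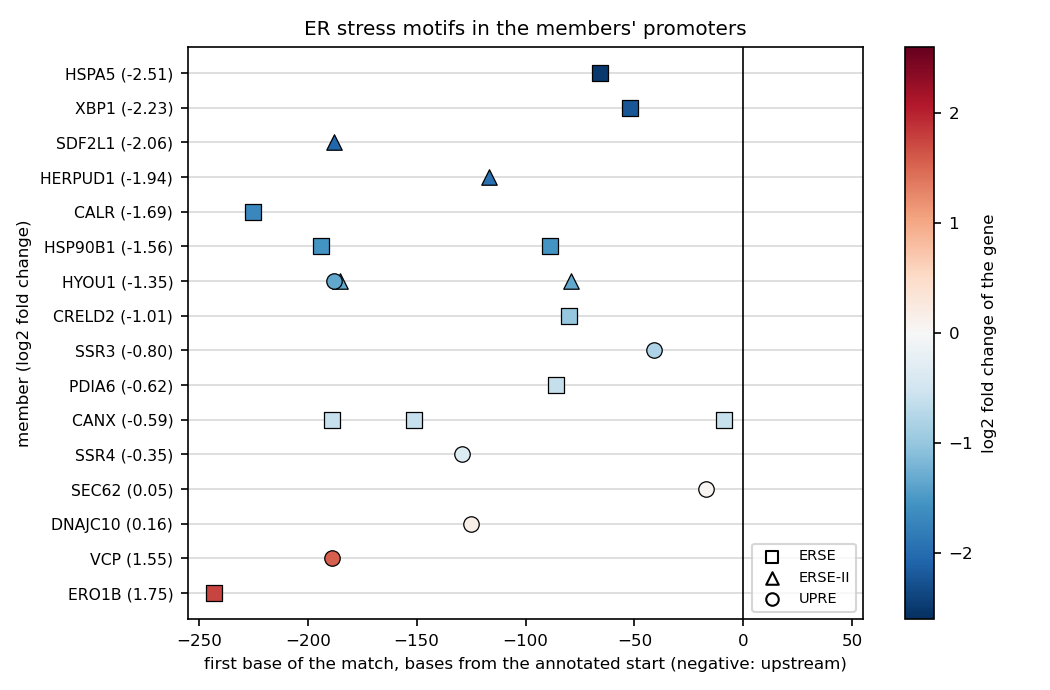
Position of exact matches to the ERSE (squares), ERSE-II (triangles) and UPRE (circles) in members' promoters, as bases from the annotated start (x axis), with members ordered and coloured by log2 fold change between the groups (in brackets). Positions are counted from each annotated start of a gene, so 1 site can appear more than once, as in CANX. The 10 members with an ERSE or ERSE-II from HSPA5 (-2.51) to CANX (-0.59) were lower in the OE libraries, and ERO1B (1.75) was higher. Of all genes tested, 39.3% were lower and 37.5% higher.

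Across all roles the members were mostly lower under the overexpression label. Of the 46, 45 had a mean of at least 1 FPKM and were tested; CREB3L1 fell short of that level. Of the 45, 39 (86.7%) passed an adjusted p of 0.05, where 76.8% of all 13972 genes tested did. The members divided into 32 lower (71.1%) and 7 higher (15.6%), against 39.3% and 37.5% of all genes tested. Lower by at least 1 on the log2 scale were 15 members (33.3%) against 15.4% of all genes tested. All 3 OE values lay outside the range of the CT values for 39 members (86.7%), against 80.1% of all genes tested. The median log2 fold change was -0.59 for the members and -0.03 for all genes tested. Together the members held 0.584% to 0.592% of summed TPM (FPKM rescaled to a common total) in the OE and 1.22% to 1.46% in the CT libraries. Without HSPA5 they held 0.530% to 0.535% and 0.960% to 1.10%.

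**Figure D2:**
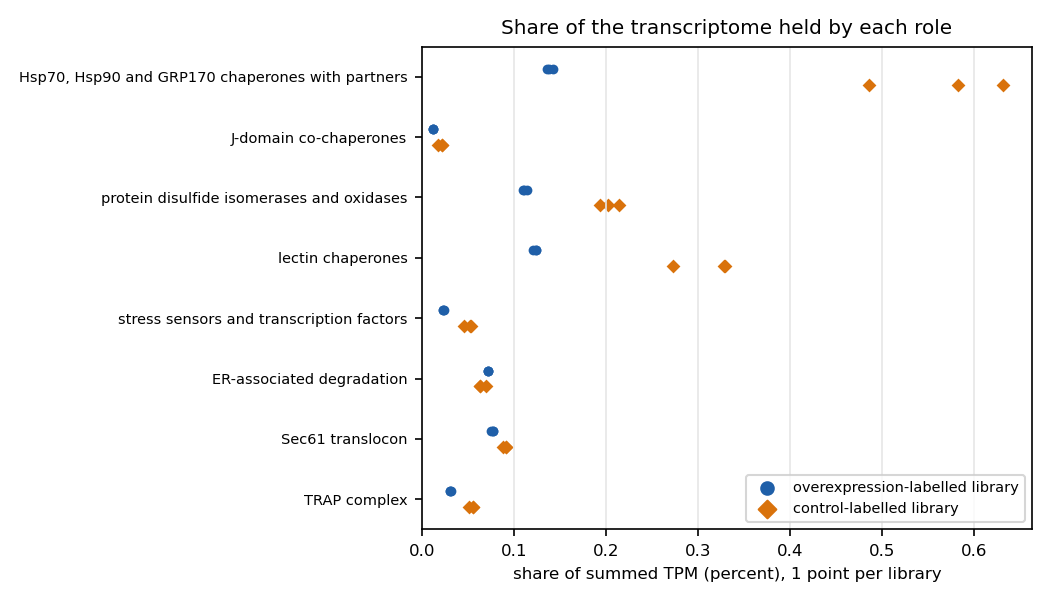
Share of summed TPM held by each role in each library (x axis, percent; 1 point per library, circles OE and diamonds CT). The Hsp70, Hsp90 and GRP170 group moved from 0.486% to 0.632% in the CT to 0.136% to 0.142% in the OE libraries. The ERAD group held 0.0633% to 0.0695% in the CT and 0.0717% to 0.0720% in the OE libraries. That sum joins genes of opposite direction, 6 lower and 2 higher. VCP, 1 of the higher genes, had a mean of 34.0 FPKM in the CT and 101 FPKM in the OE libraries.

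All 6 genes of the Hsp70, Hsp90 and GRP170 group were lower in the OE libraries, with the largest median log2 fold change of any role, -1.46. HSPA5 (ENSG00000044574, minus strand of chromosome 9 from 125234853 to 125241330, GRCh38), the Hsp70 chaperone of the ER lumen, measured 157, 155 and 164 FPKM in the OE libraries and 1059, 736 and 962 FPKM in the CT libraries. The level was 5.79-fold lower (log2 fold change -2.51 ± 0.13 (SE), adjusted p = 4.24e-06 by limma), and the lowest CT library stood far above the highest OE library. By FPKM it ranked 25 to 33 among all genes of a CT library and 176 to 186 in an OE library. HSP90B1 (ENSG00000166598, plus strand of chromosome 12 from 103930107 to 103953645), the ER form of Hsp90 also called GRP94, measured 136, 139 and 135 FPKM in the OE libraries and 425, 362 and 433 FPKM in the CT libraries (log2 fold change -1.56 ± 0.0761 (SE), adjusted p = 3.11e-06 by limma). The difference was smaller than that of HSPA5, and the ratio of HSPA5 to HSP90B1 in FPKM was 1.12 to 1.21 in the OE libraries and 2.03 to 2.49 in the CT libraries. HYOU1 (GRP170), the large Hsp70 relative that exchanges nucleotide on HSPA5, measured 32.1, 31.5 and 33.0 FPKM in the OE libraries and 91.2, 73.9 and 87.3 FPKM in the CT libraries, 2.61-fold lower in the OE than in the CT libraries (log2 fold change -1.35 ± 0.0837 (SE), adjusted p = 9.5e-06 by limma).

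SDF2L1 (ENSG00000128228, plus strand of chromosome 22 from 21642261 to 21644298), which works with J proteins to hold unfolded proteins soluble, had the second largest log2 fold change of the group, with 35.6, 35.7 and 39.1 FPKM in the OE libraries and 179.5, 151 and 141 FPKM in the CT libraries (log2 fold change -2.06 ± 0.0960 (SE), adjusted p = 2.53e-06 by limma). CRELD2, an ER stress-inducible protein with isomerase-like activity, measured 5.85, 5.57 and 5.82 FPKM in the OE libraries and 13.8, 12.6 and 11.4 FPKM in the CT libraries. MANF, a secreted factor that binds HSPA5, measured 35.0, 34.0 and 32.6 FPKM in the OE libraries and 67.7, 53.1 and 63.8 FPKM in the CT libraries. Both were lower, CRELD2 2.19-fold (limma adjusted p = 2.64e-05) and MANF 1.82-fold (limma adjusted p = 0.000186), without overlap between the groups. MANF had the smallest log2 fold change of the 6, -0.84.

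The J-domain proteins, which deliver clients to HSPA5 and start its ATP cycle, were 3 lower and 1 higher. Background shares over all genes tested were 39.3% lower and 37.5% higher. DNAJB9 (ERdj4), a feedback repressor of IRE1, measured 5.62, 5.17 and 5.05 FPKM in the OE libraries and 17.8, 11.5 and 21.4 FPKM in the CT libraries. The CT libraries were far apart from each other in that gene without reaching the OE values. DNAJB9 was 3.20-fold lower in the OE than in the CT libraries (log2 fold change -1.47 ± 0.20 (SE), adjusted p = 0.000521 by limma). DNAJC3 (p58IPK), an inhibitor of PERK signalling, was 1.90-fold lower at 9.83, 10.1 and 10.1 FPKM in the OE libraries and 21.0, 16.2 and 19.7 FPKM in the CT libraries (limma adjusted p = 0.000173). DNAJB11 (ERdj3), which binds nascent proteins, was 1.28-fold lower (limma adjusted p = 0.00192). DNAJC10 (ERdj5), a reductase of ERAD, measured 4.49, 4.34 and 4.32 FPKM in the OE libraries and 3.90, 3.76 and 3.77 FPKM in the CT libraries and was 1.15-fold higher (limma adjusted p = 0.0316), a call lost with the replicate block and without each library in turn except CT replicate 3 (adjusted p 0.0502 to 0.117).

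Of 7 disulfide isomerases and oxidases, 4 isomerases were lower, both oxidases that recharge them were higher and ERP44 did not pass. Lower were 57.1% and higher 28.6%, against 39.3% and 37.5% of all genes tested. PDIA3 (ERp57), the isomerase that works with the lectin chaperones, measured 64.0, 60.0 and 61.2 FPKM in the OE libraries and 159.6, 143 and 163 FPKM in the CT libraries (log2 fold change -1.31 ± 0.0651 (SE), adjusted p = 3.35e-06 by limma). PDIA4 (ERp72) measured 76.4, 74.6 and 78.1 FPKM in the OE libraries and 216, 185 and 192 FPKM in the CT libraries, 2.59-fold lower in the OE than in the CT libraries (log2 fold change -1.36 ± 0.0666 (SE), adjusted p = 3.21e-06 by limma). PDIA6, an isomerase that also attenuates IRE1, was 1.54-fold lower, and P4HB, the founding isomerase of the family, 1.19-fold lower (limma adjusted p = 7.14e-05 and 0.00282). On the opposite strand, other genes share 25.2% of the exon bases of PDIA6 and 14.8% of those of PDIA3, so part of their reads is uncertain. The ratio of PDIA4 to P4HB was 0.857 to 0.869 in the OE libraries and 1.78 to 1.95 in the CT libraries. ERP44, which retains oxidases in the early secretory pathway, measured 14.0, 14.0 and 13.7 FPKM in the OE libraries and 16.5, 13.7 and 15.2 FPKM in the CT libraries and did not pass the threshold (limma adjusted p = 0.191).

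The oxidase ERO1B (ENSG00000086619, minus strand of chromosome 1 from 236215555 to 236281985) measured 4.19, 3.99 and 4.08 FPKM in the OE libraries and 0.366, 0.464 and 0.713 FPKM in the CT libraries, and was 7.94-fold higher in the OE libraries (log2 fold change 1.75 ± 0.0994 (SE), adjusted p = 6.3e-06 by limma). In reads these values were 386 to 396 per OE library and 32 to 64 per CT library. ERO1A, the more widely expressed oxidase, measured 12.7, 13.1 and 13.2 FPKM in the OE libraries and 9.10, 7.95 and 8.76 FPKM in the CT libraries and was 1.51-fold higher (log2 fold change 0.55 ± 0.0626 (SE), adjusted p = 0.000208 by limma). ERO1A stayed the more abundant form in every library, and its ratio to ERO1B was 3.03 to 3.30 in the OE libraries and 12.3 to 24.8 in the CT libraries.

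Both lectin chaperones, which hold glycoproteins while they fold, were lower. Calreticulin (CALR, ENSG00000179218, plus strand of chromosome 19 from 12938578 to 12944489), the soluble lectin, measured 211, 199 and 204 FPKM in the OE libraries and 719, 577 and 706 FPKM in the CT libraries (log2 fold change -1.69 ± 0.0917 (SE), adjusted p = 5.08e-06 by limma). Calnexin (CANX), its membrane-bound counterpart, measured 155, 149 and 151 FPKM in the OE libraries and 236, 202 and 254 FPKM in the CT libraries (log2 fold change -0.59 ± 0.0873 (SE), adjusted p = 0.000727 by limma). The soluble form differed more, and the ratio of CALR to CANX was 1.34 to 1.36 in the OE libraries and 2.78 to 3.05 in the CT libraries.

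**Figure D3:**
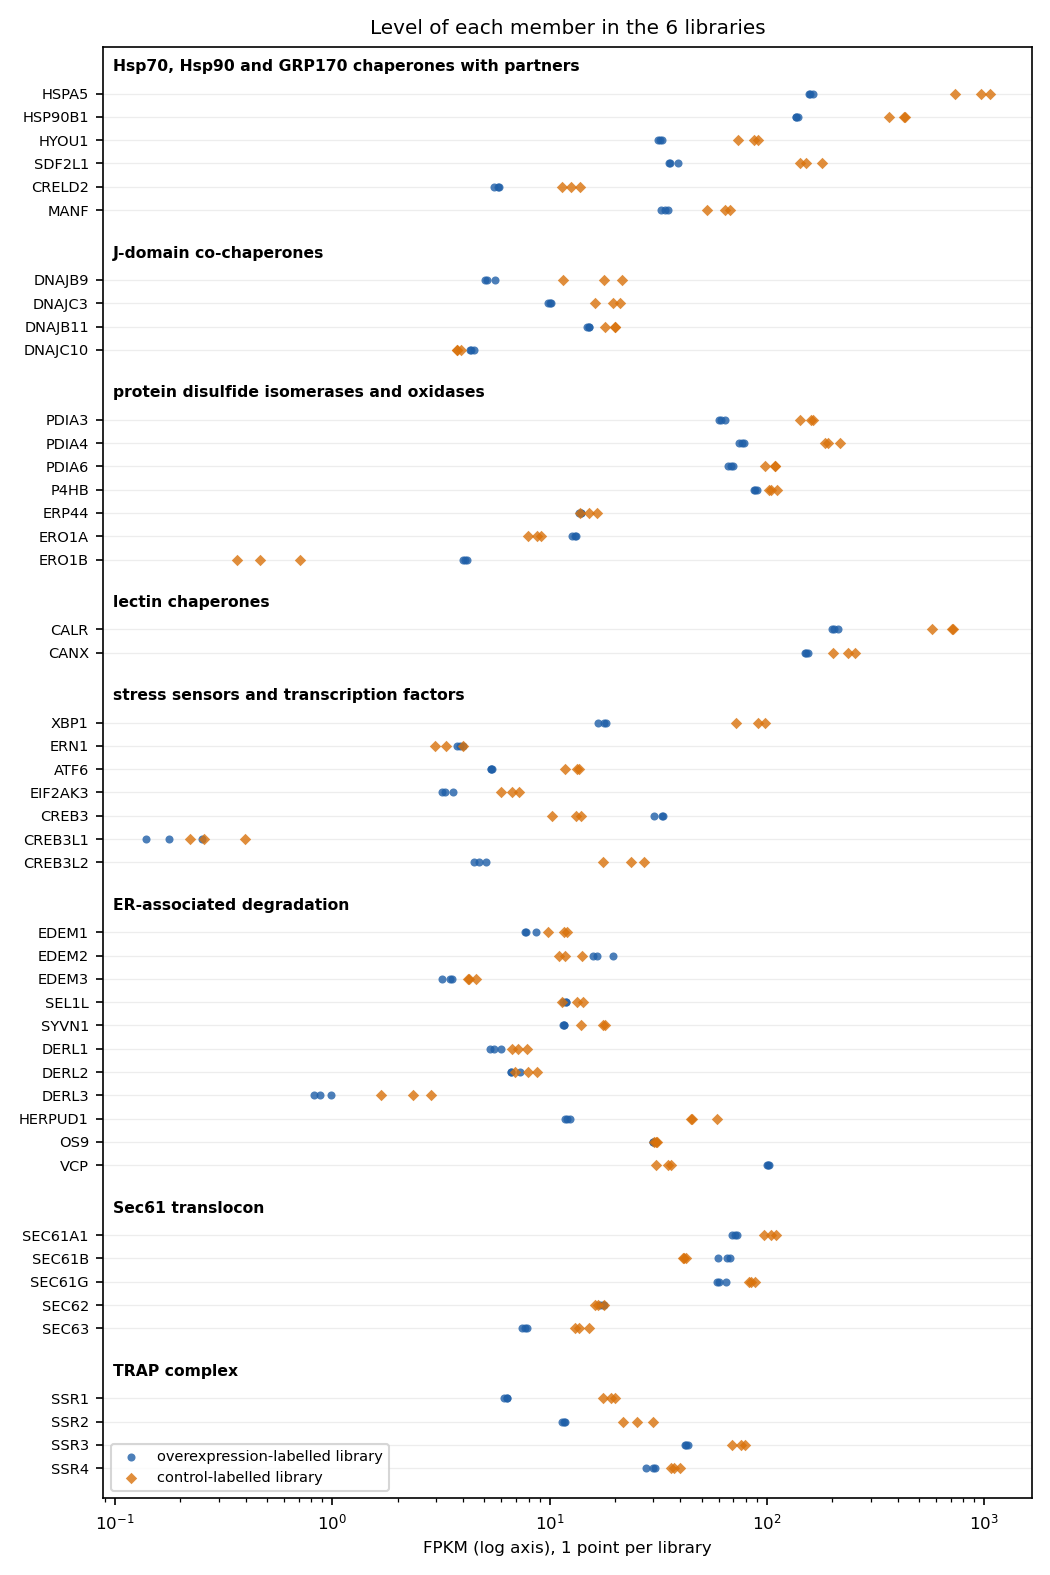
FPKM of the 46 members in each of the 6 libraries (log axis; circles OE, diamonds CT), grouped by role. The OE libraries sit closely together for most genes. The groups do not overlap for 39 of the 45 members tested (86.7%), against 80.1% of all genes tested.

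Among sensors and transcription factors XBP1, ATF6, EIF2AK3 and CREB3L2 were lower, CREB3 was higher and ERN1 did not pass the threshold. So 83.3% of those tested passed, where 76.8% of all genes tested did. XBP1 (ENSG00000100219, minus strand of chromosome 22 from 28794555 to 28800597), whose mRNA is spliced by IRE1 to yield the active factor, measured 16.7, 17.7 and 18.2 FPKM in the OE libraries and 91.0, 72.0 and 97.6 FPKM in the CT libraries, a 4.95-fold lower level (log2 fold change -2.23 ± 0.11 (SE), adjusted p = 3.87e-06 by limma). FPKM per gene does not tell the spliced from the unspliced XBP1 mRNA. ERN1, which encodes IRE1, measured 4.00, 3.77 and 3.87 FPKM in the OE libraries and 3.34, 2.98 and 3.98 FPKM in the CT libraries, overlapped between the groups and did not pass (limma adjusted p = 0.197). ERN1 passed as higher with the sum of reads as the FPKM denominator, with voom and without CT replicate 3 (log2 fold change 0.23 to 0.30, adjusted p 0.0193 to 0.0441). ATF6, the sensor that is cut in the Golgi to release a transcription factor, measured 5.36, 5.42 and 5.35 FPKM in the OE libraries and 13.4, 11.8 and 13.6 FPKM in the CT libraries (log2 fold change -1.13 ± 0.0669 (SE), adjusted p = 7.77e-06 by limma). EIF2AK3, which encodes PERK, the kinase that slows translation, measured 3.59, 3.19 and 3.29 FPKM in the OE libraries and 6.75, 6.00 and 7.20 FPKM in the CT libraries (log2 fold change -0.81 ± 0.0798 (SE), adjusted p = 9.57e-05 by limma), and 14.4% of its exon bases are shared with an antisense gene.

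The CREB3 family of membrane-bound factors, relatives of ATF6, did not move together. CREB3L2, which drives genes of ER export in secretory cells, measured 4.72, 4.49 and 5.10 FPKM in the OE libraries and 23.6, 27.1 and 17.7 FPKM in the CT libraries (log2 fold change -2.03 ± 0.15 (SE), adjusted p = 2.08e-05 by limma). CREB3, known as Luman, measured 32.8, 33.4 and 30.1 FPKM in the OE libraries and 13.2, 10.2 and 13.9 FPKM in the CT libraries and was 2.58-fold higher (log2 fold change 1.31 ± 0.11 (SE), adjusted p = 5.15e-05 by limma). CREB3L1 was at 0.139 to 0.253 FPKM in the OE libraries (10 to 18 reads) and 0.222 to 0.396 FPKM in the CT libraries (15 to 27 reads), which overlapped, and it was not tested.

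ERAD genes were divided, with 6 of 11 lower, 2 higher and 3 short of the threshold, and a median log2 fold change of -0.28. In this role 72.7% passed, where 76.8% of all genes tested did. Lower were 54.5%, against 39.3%, and lower by at least 1 on the log2 scale 9.09%, against 15.4%. HERPUD1 (ENSG00000051108, plus strand of chromosome 16 from 56932048 to 56944863), a stress-induced scaffold of the degradation complex, measured 12.0, 11.7 and 12.4 FPKM in the OE libraries and 58.7, 44.7 and 45.1 FPKM in the CT libraries (log2 fold change -1.94 ± 0.11 (SE), adjusted p = 6.05e-06 by limma). It was the 1 ERAD member lower by at least 1 on the log2 scale. VCP (ENSG00000165280, minus strand of chromosome 9 from 35056064 to 35073249), the ATPase also called p97 that pulls substrates out of the membrane, measured 101, 102 and 101 FPKM in the OE libraries and 35.1, 36.3 and 30.7 FPKM in the CT libraries, and was 2.98-fold higher (log2 fold change 1.55 ± 0.0688 (SE), adjusted p = 2.03e-06 by limma). In every OE library its FPKM was the highest of the group. EDEM1, EDEM2 and EDEM3 trim mannose from glycoproteins marked for degradation. EDEM1 was 1.39-fold and EDEM3 1.28-fold lower, whereas EDEM2 was 1.41-fold higher (limma adjusted p = 0.00369, 0.00633 and 0.00791). EDEM2 measured 19.6, 16.4 and 15.9 FPKM in the OE libraries and 11.8, 14.0 and 11.1 FPKM in the CT libraries.

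The remaining ERAD members belong to the ligase complex in the membrane. SYVN1 (HRD1), the ubiquitin ligase, measured 11.6, 11.6 and 11.6 FPKM in the OE libraries and 17.6, 14.0 and 18.0 FPKM in the CT libraries and was 1.43-fold lower (limma adjusted p = 0.00386). SEL1L, its adaptor, measured 11.9, 11.9 and 11.5 FPKM in the OE libraries and 13.4, 11.4 and 14.3 FPKM in the CT libraries and did not pass (limma adjusted p = 0.177). OS9, the lectin that brings substrates to SEL1L, measured 30.8, 29.9 and 29.7 FPKM in the OE libraries and 30.8, 30.3 and 31.4 FPKM in the CT libraries, the smallest difference of all tested members (log2 fold change -0.03, limma adjusted p = 0.556), with 13.5% of its exon bases shared with an antisense gene. Of the derlins, which form part of the retrotranslocation channel, DERL1 was 1.29-fold lower (limma adjusted p = 0.00769) and DERL2, at 7.34, 6.67 and 6.62 FPKM in the OE libraries and 8.79, 6.91 and 7.99 FPKM in the CT libraries, did not pass (limma adjusted p = 0.126). DERL3 measured 0.986, 0.875 and 0.826 FPKM in the OE libraries and 2.84, 2.36 and 1.68 FPKM in the CT libraries (limma adjusted p = 0.0018), but 77.0% of its exon bases also belong to exons of SMARCB1 on the other strand, so its reads cannot be assigned with certainty.

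Of the Sec61 channel genes, 3 were lower, 1 was higher and 1 did not pass. That is 80.0% past the threshold, near the 76.8% of all genes tested. SEC61A1, the pore-forming subunit, measured 73.1, 69.3 and 70.9 FPKM in the OE libraries and 110.2, 96.7 and 105 FPKM in the CT libraries (log2 fold change -0.54 ± 0.0608 (SE), adjusted p = 0.00019 by limma). SEC61G, a small subunit, was 1.39-fold lower (limma adjusted p = 0.000238). SEC61B, the other small subunit, measured 65.4, 67.8 and 59.4 FPKM in the OE libraries and 41.4, 41.3 and 42.3 FPKM in the CT libraries and was 1.54-fold higher (log2 fold change 0.61 ± 0.0603 (SE), adjusted p = 9.89e-05 by limma). The ratio of SEC61B to SEC61A1 was therefore 0.837 to 0.979 in the OE libraries and 0.376 to 0.427 in the CT libraries, while that of SEC61G to SEC61A1 overlapped between the groups. Of the 2 auxiliary factors, SEC63, a J protein that recruits HSPA5 to the channel, was 1.82-fold lower at 7.88, 7.47 and 7.72 FPKM in the OE libraries and 13.6, 13.1 and 15.3 FPKM in the CT libraries (limma adjusted p = 5.1e-05). SEC62 measured 17.1, 17.8 and 17.6 FPKM in the OE libraries and 17.8, 16.2 and 16.7 FPKM in the CT libraries and did not pass (limma adjusted p = 0.445).

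All 4 subunits of TRAP, the complex beside the channel that aids the entry of certain signal sequences, were lower. SSR1 (TRAP alpha) measured 6.40, 6.34 and 6.17 FPKM in the OE libraries and 20.1, 19.1 and 17.5 FPKM in the CT libraries (log2 fold change -1.44 ± 0.0629 (SE), adjusted p = 1.87e-06 by limma). SSR2 (TRAP beta) measured 11.4, 11.7 and 11.7 FPKM in the OE libraries and 25.4, 21.8 and 29.9 FPKM in the CT libraries (log2 fold change -1.07 ± 0.11 (SE), adjusted p = 0.000109 by limma). SSR3 (TRAP gamma) was 1.76-fold and SSR4 (TRAP delta) 1.29-fold lower (limma adjusted p = 2.55e-05 and 0.00166). The subunits thus differed by unequal amounts, and the ratio of SSR1 to SSR4 was 0.210 to 0.223 in the OE libraries and 0.442 to 0.538 in the CT libraries. The lengths behind FPKM are the joined exons of every annotated transcript of a gene (6651 bases for SSR2), so a ratio between genes bears on the comparison of the groups and not on subunit numbers.

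**Figure D4:**
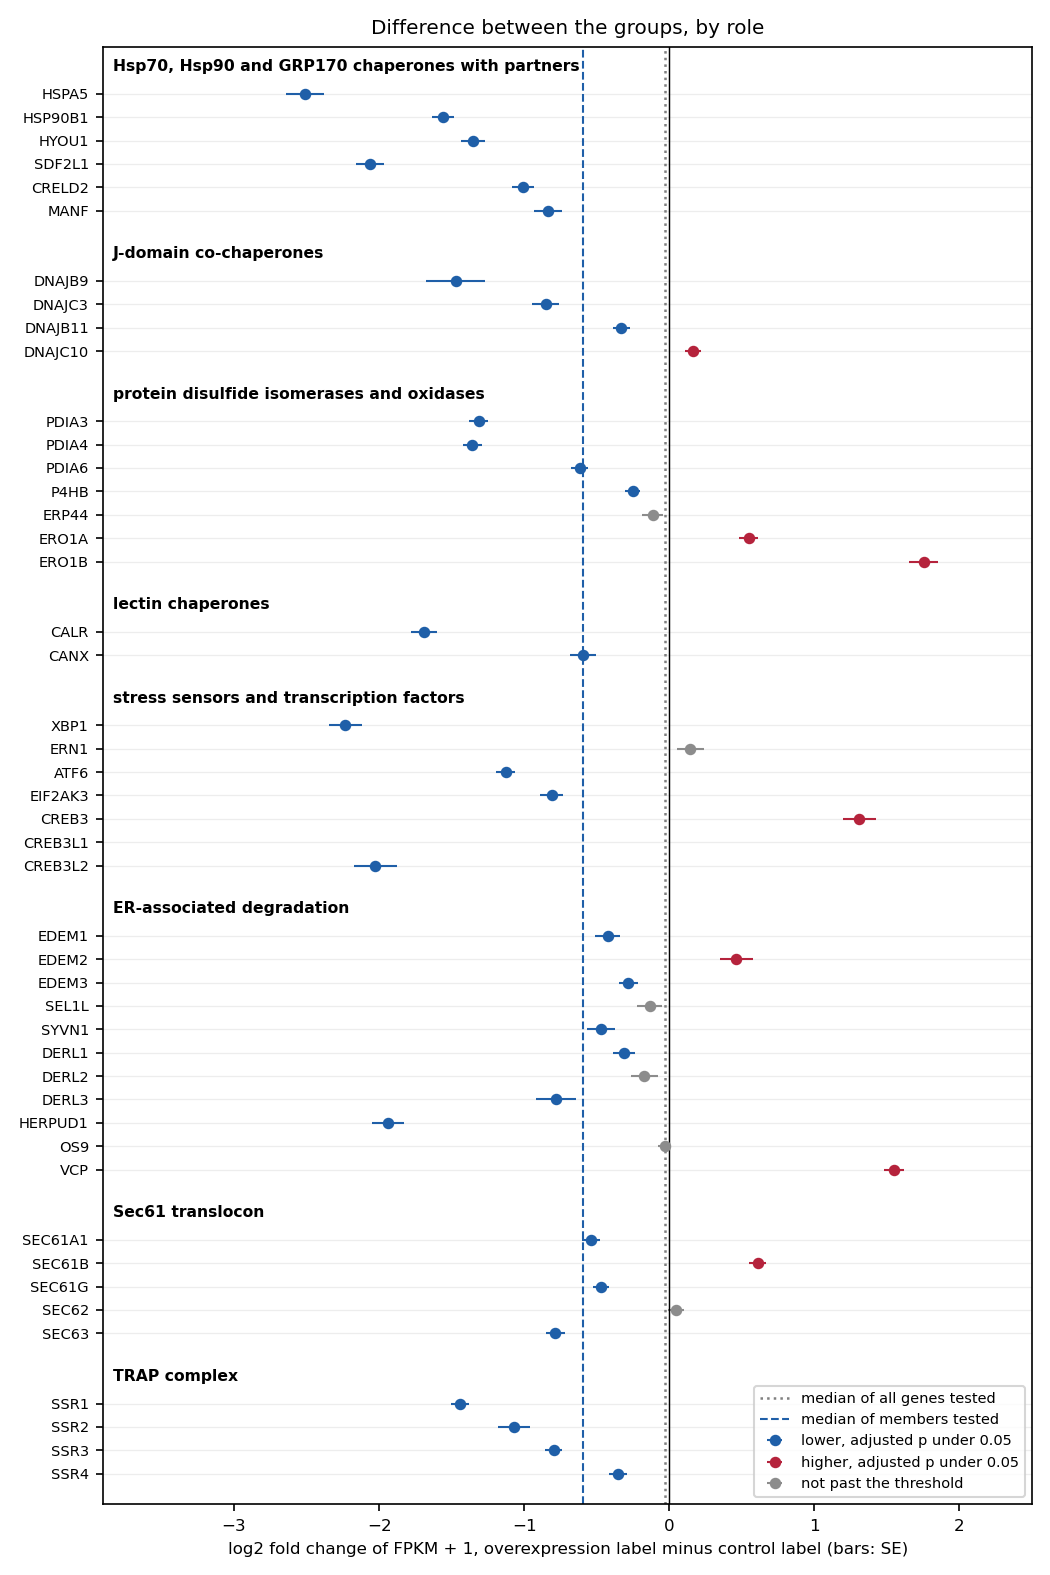
Log2 fold change of FPKM + 1 between the groups (x axis, OE minus CT) with its standard error for the 45 tested members, grouped by role and coloured by the limma call. The median of the members (dashed, -0.59) lies below that of all genes tested (dotted, -0.03), and the 7 higher members include VCP, ERO1B and CREB3.

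Other genes of the same pathway, taken from a list of 116, were nearer to the background. Of 115 tested, 54 (47.0%) were lower and 36 (31.3%) higher, against 39.3% and 37.5% of all genes tested, with a median log2 fold change of -0.11. Other lumenal folding factors were 16 lower and 10 higher of 33. FKBP14, a prolyl isomerase of collagen folding, was 3.14-fold lower, the testis-type calnexin CLGN 4.93-fold and the glycoprotein folding sensor UGGT1 2.13-fold, whereas the membrane thioredoxin TMX4 was 3.17-fold higher, the prolyl isomerase FKBP11 3.54-fold and the glucosidase MOGS 2.43-fold. Other ERAD factors were 7 lower and 10 higher of 24. The ligase gene MARCH6 measured 15.8, 16.0 and 16.3 FPKM in the OE libraries and 55.1, 50.1 and 55.4 FPKM in the CT libraries, SELENOS and UBXN8, which recruit VCP to the membrane, were 2.69-fold and 2.77-fold lower, and the conjugating enzyme UBE2J1, UBXN4 and the VCP inhibitor SVIP were 2.73-fold, 1.90-fold and 1.88-fold higher.

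Genes of targeting, signal peptide removal and membrane insertion were 15 lower (57.7%) and 6 higher (23.1%) of 26. Of all genes tested, 39.3% were lower and 37.5% higher. TRAM1, a neighbour of the Sec61 channel, was 2.33-fold lower and the receptor subunit SRPRB 2.03-fold. Within the signal peptidase, SPCS2 was 1.90-fold lower while SPCS3 was 2.49-fold and SPCS1 1.74-fold higher, and EMC10 of the insertion complex was 2.09-fold higher. Oligosaccharyltransferase genes were 7 lower (58.3%) and 3 higher (25.0%) of 12. TUSC3, an oxidoreductase subunit of that enzyme, measured 0.0219, 0.0107 and 0.0108 FPKM in the OE libraries and 7.79, 7.98 and 8.56 FPKM in the CT libraries, from 4 reads in all OE libraries together. Its OE value stood close to 0 in each library, while MAGT1, which encodes the alternative to that subunit, measured 25.8, 26.0 and 25.7 FPKM in the OE libraries and 35.2, 34.0 and 29.7 FPKM in the CT libraries and was also lower (limma adjusted p = 0.00419). OSTC and the catalytic subunit STT3A were 2.06-fold and 2.01-fold lower, and OST4, DAD1 and DDOST 1.30-fold, 1.27-fold and 1.13-fold higher. The call of DDOST was lost without any 1 of the OE replicates, without the filter and on TPM (adjusted p 0.0523 to 0.108).

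Other stress signalling genes were 9 lower (45.0%) and 7 higher (35.0%) of 20 tested, near the 39.3% and 37.5% of all genes tested. The genes named below are the largest changes of that list. ATF3, a factor of the PERK branch, measured 4.13, 4.70 and 4.20 FPKM in the OE libraries and 39.1, 28.5 and 50.9 FPKM in the CT libraries (log2 fold change -2.89 ± 0.19 (SE), adjusted p = 1.44e-05 by limma). DDIT3 (CHOP), the factor linked to cell death under ER stress, measured 9.68, 11.1 and 10.8 FPKM in the OE libraries and 74.3, 53.3 and 84.9 FPKM in the CT libraries (log2 fold change -2.62 ± 0.17 (SE), adjusted p = 1.05e-05 by limma). PPP1R15B, the constitutive partner of the phosphatase that reverses PERK signalling, was 7.12-fold lower (log2 fold change -2.73 ± 0.0723 (SE), adjusted p = 2.1e-07 by limma), whereas its inducible relative PPP1R15A measured 40.6, 39.4 and 39.6 FPKM in the OE libraries and 50.5, 35.5 and 97.2 FPKM in the CT libraries and did not pass (limma adjusted p = 0.222). WFS1, a membrane protein that restrains ATF6, measured 32.7, 31.1 and 31.1 FPKM in the OE libraries and 5.18, 5.54 and 5.61 FPKM in the CT libraries, the largest difference upward in the list (log2 fold change 2.34 ± 0.0537 (SE), adjusted p = 1.19e-07 by limma). The receptors that return escaped chaperones to the ER differed in direction, KDELR1 and KDELR3 being 1.98-fold and 1.74-fold higher and KDELR2 1.46-fold lower. These extra genes were chosen by list and size of change, with PPP1R15A, KDELR2 and MAGT1 added after their values were seen.

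The CT libraries were further apart from each other than the OE libraries, in the members as in the table. The median SD of log2(FPKM + 1) over the 45 members was 0.0345 in the OE and 0.13 in the CT libraries, against 0.0592 and 0.128 over all genes tested. CT replicate 2 was the lowest CT library for 34 of the 45 members (75.6%) and for 42.3% of all genes tested. Its median deviation from the CT mean was -0.11 on the log2 scale over the members, beside a median difference between the groups of -0.59. The 8 cytosolic heat shock genes of a companion list were all lowest in CT replicate 2 and all highest in CT replicate 3. HSPA1A, the inducible cytosolic Hsp70, measured 15.3, 14.5 and 15.7 FPKM in the OE libraries and 414, 201 and 885 FPKM in the CT libraries, and HSPA6, a strictly inducible relative, 0, 0.0233 and 0.0708 FPKM in the OE libraries and 41.5, 19.8 and 159.7 FPKM in the CT libraries. HSPA1A shares near-identical sequence with HSPA1B. Of the 8, HSPA1A, HSPA1B, HSPA6, DNAJB1 and BAG3 were lower in the OE libraries, whereas HSPA8, HSPH1 and HSP90AA1 overlapped between the groups and did not pass (limma adjusted p = 0.708, 0.278 and 0.323). Over the members the median deviations in CT replicates 1 and 3 were 0.063 and 0.052. Left out in turn, CT replicates 1, 2 and 3 gave 32, 35 and 32 lower members, the added 3 being ERP44, SEL1L and DERL2.

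**Figure D5:**
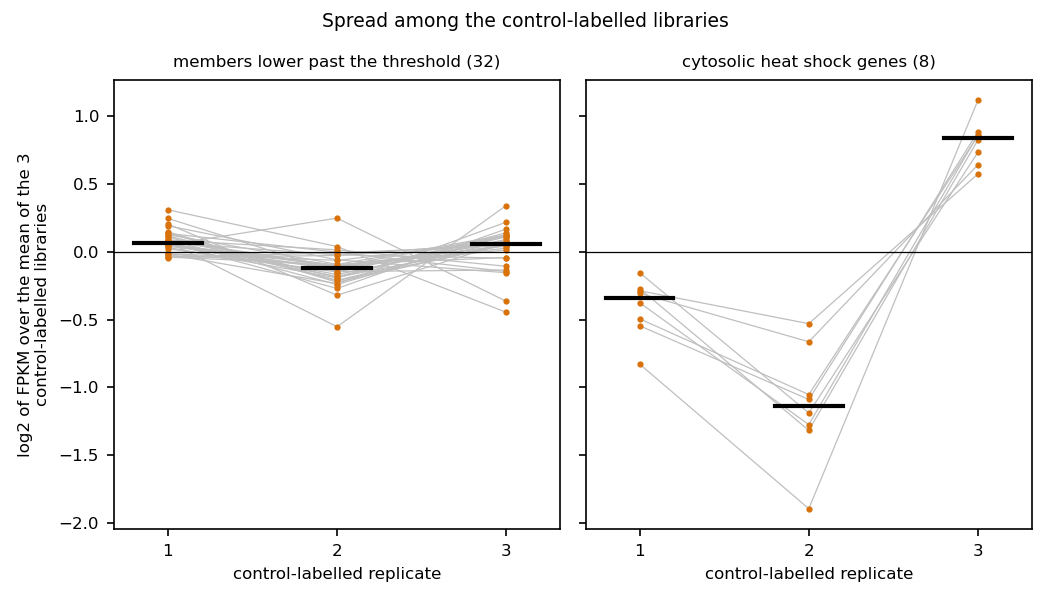
Deviation of each gene from its mean over the 3 CT libraries (y axis, log2) in each CT replicate, for the 32 lower members (left) and 8 cytosolic heat shock genes (right); grey lines join the same gene, black bars are medians and the replicates have no order. The medians of the lower members were 0.068, -0.12 and 0.060, and those of the heat shock genes -0.34, -1.14 and 0.84.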

How the data were processed

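For 6 RNA-seq libraries the authors deposited FPKM values of every gene beside its length in bases. Groups follow the titles. The genome build in the submitters' processing notes is mm10, a mouse build, but all 58735 identifiers, positions and symbols matched the human GENCODE release 29 (GRCh38), whose coordinates are given. Aligner, counter and strand were not given in the sources used here. FPKM times length, over what 1 read was worth in the library, was whole within 0.001 read in 100% of values, which gave reads.

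Groups were compared with two-sided moderated tests in limma 3.58.1 (R 4.3.3, trend option) on log2(FPKM + 1). Genes whose mean over the libraries reached 1 FPKM entered (13972), p-values were adjusted by Benjamini-Hochberg over all of them, and the threshold was 0.05. That log2 scale understates changes of low genes. Folds are ratios of mean FPKM. Alternatives were fitted as listed at the end, and the steps were run on simulated data. That simulation changed few genes and gave both groups the same spread, unlike these libraries. It checks the steps and not the error rate of the calls here. Members, lists and tests were chosen with earlier results of these data known. Named genes are all members, and up to 3 per direction of each further list by size of change without overlap. Promoters were from RefSeq; proteins were not used here. Of 46 members, 26 share exon bases with another gene, 5 of them over 10% (DERL3, PDIA6, PDIA3, EIF2AK3, OS9).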

Additional observations from a re-analysis of the deposited data

How the results depend on the processing

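Under 16 alternatives (pseudocount 0.1, no filter, a mean of 5 FPKM, 4 scalings, no trend, voom on the reads, the replicate block and each library left out) the calls of all 32 lower members held wherever they were tested, as did those of the higher members except DNAJC10. The count of lower members was 32, except 30 of 40 tested at a mean of 5 FPKM and 35 without CT replicate 2. Higher members numbered 5 to 9. At a mean of 5 FPKM 6218 of 7796 genes passed, fewer genes being tested. With the sum of reads as the FPKM denominator, 4965 of all genes were lower and 5816 higher, from 5485 and 5241. The median of the members was then -0.49 and that of all genes 0.07. OS9 changed sign, to 0.074 with the sum of reads as the FPKM denominator, 0.11 after quantile normalization and 0.080 with voom. Voom put the median of all genes at 0.08, from -0.03, and that of the members at -0.49. SEC62 passed as higher under the same 3 fits (0.15 to 0.16, adjusted p 0.0241 to 0.0323). With the replicate block 32 members were lower and 6 higher, DNAJC10 missing the threshold (adjusted p = 0.0845). The titles number the libraries without naming a pairing. Deviations of same-numbered libraries correlated at -0.0059, -0.022 and 0.0075, and not each library did so best with its own number. Such values cannot show whether libraries shared a batch, which the titles do not give. Without 1 library, lower members numbered 32 to 35. Depth limits CREB3L1, with 10 to 27 reads per library.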

Other observations

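VCP and CREB3, which were both higher in the OE libraries, lie on the short arm of chromosome 9, 659 kilobases apart. Between 35056064 and 35737004 on that chromosome, 12 other genes were tested, of which 6 were higher and 3 lower, and 3 did not pass. Over all genes tested, 37.5% were higher, 39.3% were lower and 76.8% passed in either direction. HSPA5, ERP44 and SEC61B lie on the long arm of the same chromosome and were respectively lower, short of the threshold and higher. This stretch was looked at after the values were seen.

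No ERSE or ERSE-II letters were found in the promoters of the 95 further pathway genes, of 116, that had one in the RefSeq table. The HERPUD1 promoter also holds, 176 bases upstream, the letters TGATGCAA on its other strand, a core of the CHOP-type response element found in 0.87% of promoters.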
